A study of Homo sapiens with 6 samples.

Results

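The genes described here encode carriers of amino acids in 6 families of the solute carrier (SLC) superfamily. They were taken as every entry of the count files whose symbol is SLC1A, SLC3A, SLC7A, SLC36A, SLC38A or SLC43A followed by a number only, which gave 40 genes of 24462 distinct symbols. The series holds 6 libraries of H460, an established human lung cancer cell line: 3 from cells kept for 24 h in glutamine-free medium with 10% dialyzed serum (depleted), and 3 from glutamine-replete cells (replete). All cells had been grown in RPMI medium with 10% fetal bovine serum and antibiotics, and neither the serum of the replete cells over those 24 h nor the origin of the libraries from separate cultures is given, so the spread behind each p-value may be technical. Libraries were made from 500 ng of RNA with a 3′-end kit, which reads transcripts close to their poly(A) tail, so counts are not divided by transcript length.

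Amino acids cross membranes through carriers that differ in substrate, in the ion they are coupled to, and in the membrane they sit in. The SLC1 family holds glutamate carriers and neutral amino acid exchangers, and the SLC38 family holds sodium-coupled carriers of glutamine and other small neutral amino acids. Most SLC7 proteins are light chains that need a heavy chain of the SLC3 family to reach the surface, while the cationic amino acid carriers of SLC7 act alone. The SLC36 family holds proton-coupled carriers, among them SLC36A1, which is found on lysosomes, and SLC43 proteins are facilitative carriers. Several of these genes are textbook targets of ATF4, the transcription factor that cells make more of when the kinase GCN2 (EIF2AK4) senses uncharged tRNA.

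Of the 40 genes, 6 had no count in any library, 14 had counts but fell under the count filter of the test, and 20 were tested. Library totals ran from 7550849 to 10914899 counts, and depleted replicate 2 stood apart from the other depleted libraries, at a chi-square per degree of freedom of 17.97 and 10.86 against them, where the remaining pairs within a group ran up to 3.71. Epithelial markers (KRT8, KRT18, KRT19, EPCAM, CDH1) summed to 761 to 881 CPM (a gene's count relative to the total of its library) in depleted and 2067 to 2092 CPM in replete libraries, almost all of it keratin, with EPCAM at 16 counts and CDH1 at 1 count over all libraries. Fibroblast markers summed to 81.7 CPM in depleted replicate 3, with COL1A1 at 56.5 CPM, and to 8.09 to 19.3 CPM in the other libraries. Blood markers stayed at or under 3.58 CPM and endothelial markers at or under 0.126 CPM. Without depleted replicate 3, 11 of the carrier genes were still higher and 4 were lower.

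The RefSeq promoter table on GRCh38.p14 held 34 start-site windows for 18 of the 20 tested genes, without SLC7A2 and SLC7A11. The 250 bases before each start were searched on both strands for 3 motifs: TGATGNAA, the C/EBP-ATF response element through which ATF4 acts; TGACNNNGC, the core of the antioxidant response element; and TCACGTGA, the core of the CLEAR element of lysosomal genes. TGATGNAA was in a window of 2 of the 18 genes, SLC1A3 and SLC1A5, and TCACGTGA in a window of SLC36A1 alone. TGACNNNGC was in a window of 5: SLC1A3, SLC3A2, SLC7A1 and SLC7A6, which rose, and SLC1A5, which fell. SLC38A7, whose increase was nearly as steep as those of SLC3A2 and SLC36A1, held none of the 3 motifs. Of all genes in the table, 3.89%, 13.2% and 1.04% held these motifs, in the order of the search list, in at least 1 window. These shares are not on the same footing as the counts above. The 18 carriers had 34 windows, while the 27305 genes of the table had 35116, which is fewer per gene. Of all windows, 3.14%, 10.9% and 0.854% held a match. No match overlapped a match of another motif, and a match says only that these letters are in the window. The stretches around 6 of the matches are shown because they belong to SLC3A2 and SLC36A1, whose increases were among the steepest, to other carriers that rose, and to SLC1A5, a glutamine importer that fell, with the match in capitals and up to 10 bases on each side, 5′ to 3′ on the strand of the gene.
SLC3A2: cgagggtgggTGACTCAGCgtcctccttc
SLC36A1: ggcggtgggaTCACGTGAt
SLC7A1: tgcccggcggTGACGCGGCcgagcgggcc
SLC7A6: cggcggcgggTGACGTGGCggggcggggc
SLC1A3: aggaaatgacTGATGCAAagcagggtta
SLC1A5: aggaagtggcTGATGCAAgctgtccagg
They lie at chr11:62881652-62881680 (plus strand) for SLC3A2, chr5:151447584-151447602 (plus) for SLC36A1, chr13:29595755-29595783 (minus) for SLC7A1, chr16:68264487-68264515 (plus) for SLC7A6, chr5:36596358-36596385 (plus) for SLC1A3 and chr19:46784894-46784921 (minus) for SLC1A5. The matches began 37, 9, 85, 29, 220 and 97 bases before the start, in that order, and those of SLC3A2, SLC36A1 and SLC1A5 fell inside an exon of some GENCODE 29 transcript.

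The comparison asked which amino acid carriers differed in transcript level after a day in glutamine-free medium with dialyzed serum. As the serum of the replete cells over that time is not given, lack of glutamine and a change of serum cannot be told apart. More of the tested carriers rose than fell: 11 of 20 were higher in depleted cells, where 39.1% of all 12739 tested genes were, and 5 were lower, where 39.4% of all genes were. In bulk libraries, a change in RNA per cell and a change in the share of cells that make it cannot be told apart. Passing in either direction was common in this series (78.6% of all genes), and 16 of 20 carriers is near that share. The CPM ranges of the groups did not overlap for 17 of the 20, against 81% of all genes. By more than 2-fold, 7 carriers rose (21.8% of all genes) and 1 fell (23.7% of all genes). The median log2 fold change was 0.52 over the carriers and −0.02 over all tested genes. By family, 2 of 3 tested SLC1 genes, the tested SLC3 gene, 4 of 5 SLC7 genes, 1 of 2 SLC36 genes and 3 of 7 SLC38 genes were higher, and 1 SLC1, 3 SLC38 and 1 SLC43 gene were lower. Log2 fold changes are depleted over replete and use trimmed-mean scaling (TMM), while CPM uses library totals, and scaling by totals alone moved the median gene from −0.02 to −0.25. The 2-fold counts depend on this scaling. On library totals, SLC1A3 (log2 fold change 0.79), SLC7A6 (0.89) and SLC38A1 (0.83) rose by less than 2-fold. SLC38A5 (−1.06) then fell by more than 2-fold. Upper quartile factors moved the same genes across 2-fold.

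**Figure D1:**
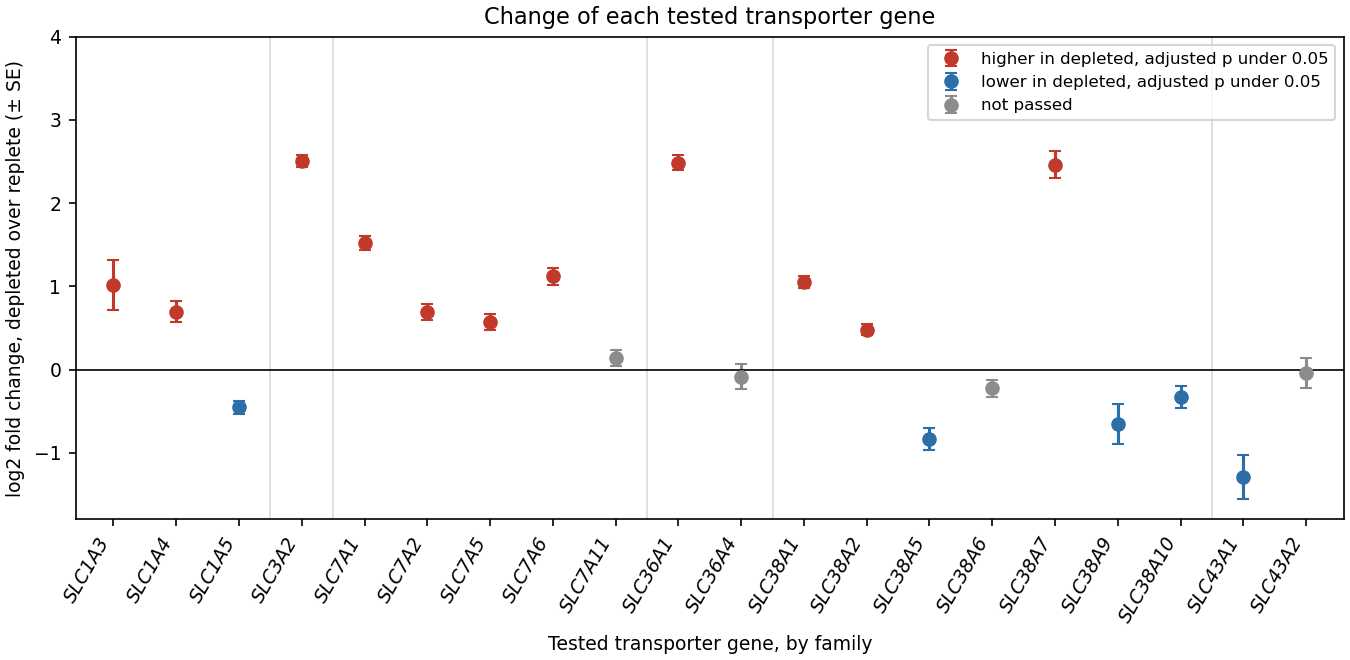
Log2 fold change (depleted over replete, bars ± SE, n = 3 libraries per group) of the 20 tested carrier genes, grouped by family with grey lines between families. SLC3A2, SLC36A1 and SLC38A7 sit together near 2.5 above all others, and the SLC38 family spans from SLC38A7 at 2.46 to SLC38A5 at −0.83.

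The heavy chain had the largest CPM difference of the 40 genes. SLC3A2, also called CD98 heavy chain, brings several SLC7 light chains to the cell surface. Its level was 759, 833 and 739 CPM in depleted replicates 1 to 3 and 160.2, 163.5 and 155 CPM in replete replicates 1 to 3. Every depleted library lay more than 500 CPM above every replete library. The log2 fold change was 2.51 (SE 0.07, adjusted p = 8.41e-12, edgeR quasi-likelihood). SLC3A1, the heavy chain of the kidney and gut cystine carrier, was barely measured, with 18 depleted and 3 replete counts, which is a ratio of 5.19 with an exact 95% counting interval of 1.52 to 27.5. Counting intervals cover counting error only.

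The 3 tested light chains that pair with SLC3A2 had smaller log2 fold changes. SLC7A5 (LAT1) exchanges large neutral amino acids such as leucine, often against glutamine. It was at 228, 286 and 284.5 CPM in depleted and 199, 212 and 218 CPM in replete replicates 1 to 3. The depleted libraries were all higher, but depleted replicate 1 lay only about 10 CPM above the highest replete library. The log2 fold change was 0.57 (SE 0.09, adjusted p = 7.53e-05). The pseudogene SLC7A5P2, a near copy that could take some of its reads, held 60 depleted and 49 replete counts, against 12568 counts of SLC7A5 over all libraries. SLC7A6 (y+LAT2), which exchanges cationic for neutral amino acids, was at 64.0, 71.2 and 59.0 CPM in depleted and 34.8, 35.5 and 34.3 CPM in replete cells. The groups were well apart, with a log2 fold change of 1.12 (SE 0.10, adjusted p = 2.53e-07). Exons of SLC7A6 overlap those of SLC7A6OS on the other strand, which held 598 depleted and 422 replete counts. Whether strand was used in counting is not given, so such partners may have shared reads.

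SLC7A11 (xCT), which exports glutamate in exchange for cystine, had the highest counts of the light chains and did not pass. It was at 644, 478 and 579 CPM in depleted and 642, 570.2 and 599 CPM in replete replicates 1 to 3. The depleted libraries spread around the replete ones, with depleted replicate 2 below them all. The log2 fold change was 0.14 (SE 0.09, adjusted p = 0.197). Its direction turned when the dependence on GC content and length of transcripts was taken out, to −0.25 (adjusted p = 0.00650), and it passed as higher without depleted replicate 2, at 0.25 (adjusted p = 4.27e-05), so no direction can be given. SLC7A11-AS1 on the other strand held 205 depleted and 121 replete counts.

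The other light chains had too few counts to test. SLC7A8 (LAT2), a neutral amino acid exchanger close to LAT1, had 11 depleted and 43 replete counts and a ratio of 0.221 (95% counting interval 0.103 to 0.436). SLC7A7 (y+LAT1), the paralogue of SLC7A6, went the other way, with 28 depleted and 5 replete counts and a ratio of 4.85 (1.85 to 16.1). SLC7A10 (Asc-1), an exchanger of small neutral amino acids, had 12 and 21 counts, a ratio of 0.494 (0.222 to 1.05). SLC7A9, the partner of SLC3A1, had 5 counts in all.

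Within each library, the heavy chain stood higher relative to its partners in depleted cells. The counts of SLC3A2 divided by those of SLC7A5, SLC7A6, SLC7A7, SLC7A8, SLC7A10 and SLC7A11 together gave 0.809, 0.996 and 0.799 in depleted and 0.182, 0.200 and 0.181 in replete replicates 1 to 3. The lowest depleted ratio was about 4 times the highest replete ratio. The log2 ratio differed by 2.20 between groups (−0.21 ± 0.18 in depleted and −2.41 ± 0.08 in replete, mean ± SD, n = 3 each, exact two-sided permutation p = 0.1, the smallest that 3 against 3 allows). Such a ratio does not depend on the scaling between libraries, but the capture of each gene's 3′ end is not known, so it is not a ratio of molecules. Within the light chains, SLC7A11 made up 62.8% ± 5.76 of the counts in depleted and 70.9% ± 1.88 in replete cells, SLC7A5 29.7% ± 4.99 and 24.7% ± 1.72, and SLC7A6 7.24% ± 1.13 and 4.10% ± 0.201 (mean ± SD, n = 3 each).

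**Figure D2:**
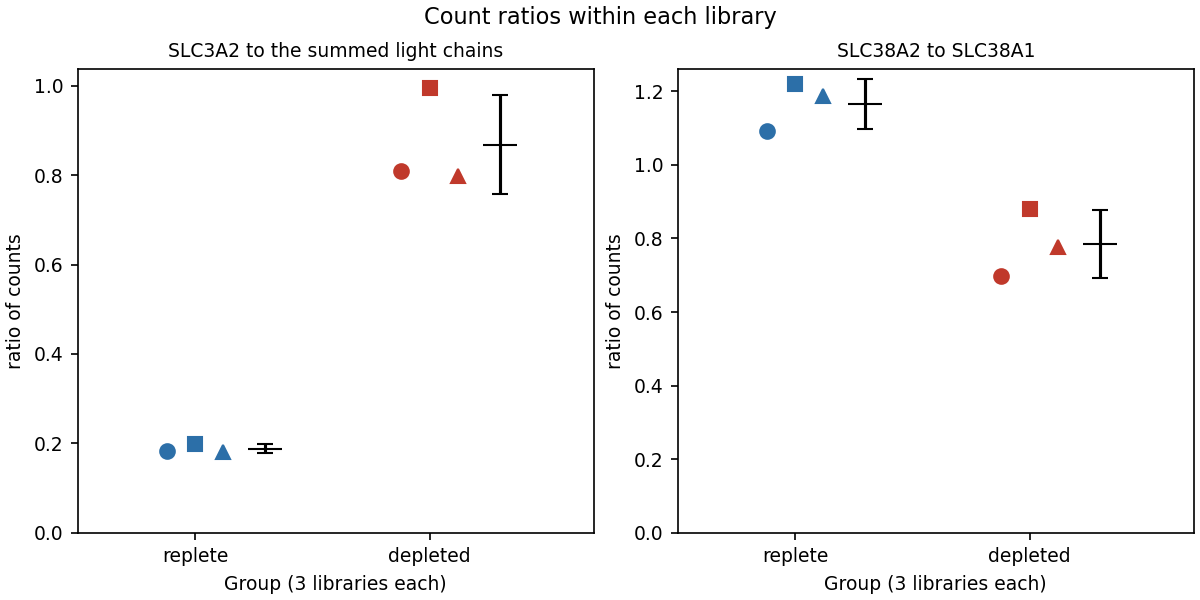
Ratio of counts within each library for SLC3A2 against the summed light chains (left) and SLC38A2 against SLC38A1 (right), with circles, squares and triangles for replicates 1, 2 and 3 and the mean ± SD beside them in black. On the left the depleted libraries lie at 0.799 to 0.996 and the replete ones at 0.181 to 0.200, and on the right the order of the groups is opposite, with 0.697 to 0.880 in depleted and 1.09 to 1.22 in replete.

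The cationic amino acid carriers of SLC7, which need no heavy chain, both rose. SLC7A1 (CAT1), the widely expressed importer of arginine and lysine, was at 195.7, 178 and 165 CPM in depleted and 71.7, 73.6 and 73.9 CPM in replete cells. The replete libraries were within 3 CPM of each other and far below the depleted ones, and the log2 fold change was 1.52 (SE 0.08, adjusted p = 2.39e-09). SLC7A2 (CAT2), its paralogue, was at 85.0, 69.1 and 70.7 CPM in depleted and 55.6, 50.1 and 57.5 CPM in replete cells. The depleted libraries were all higher, by a log2 fold change of 0.69 (SE 0.10, adjusted p = 3.09e-05). SLC7A14, a lysosomal relative, had 8 counts, and SLC7A3, SLC7A4 and SLC7A13 had none, which allows up to 0.275 to 0.397 CPM per library (3 counts).

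In the SLC1 family the neutral amino acid exchangers went in opposite directions. SLC1A5 (ASCT2), a main carrier of glutamine into cancer cells, was at 154.9, 169 and 157 CPM in depleted and 273, 262 and 236 CPM in replete replicates 1 to 3. All depleted libraries were lower, and the log2 fold change was −0.45 (SE 0.08, adjusted p = 0.000134). With the dependence on GC content and length taken out it was −0.18 (adjusted p = 0.0342). SLC1A4 (ASCT1), its paralogue for alanine, serine and cysteine, was at 32.3, 43.3 and 35.2 CPM in depleted and 25.9, 25.3 and 28.7 CPM in replete cells. The depleted libraries were all above the replete ones, with a log2 fold change of 0.70 (SE 0.13, adjusted p = 0.000204).

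Of the SLC1 glutamate carriers, only SLC1A3 (EAAT1) was tested, at low counts. It had 3.48, 3.09 and 5.19 CPM in depleted and 1.99, 3.03 and 1.72 CPM in replete cells, with depleted replicate 2 and replete replicate 2 nearly level. The log2 fold change was 1.02 (SE 0.30, adjusted p = 0.00685). SLC1A1 and SLC1A2, the glutamate carriers EAAT3 and EAAT2, had 1 and 3 counts in all, and SLC1A6 and SLC1A7 had none. As a description with no test, the counts of SLC1A5 divided by those of SLC7A5, a pair of carriers that can pass glutamine between them, were 0.679, 0.593 and 0.551 in depleted and 1.37, 1.24 and 1.08 in replete cells. SLC1A5 thus exceeded SLC7A5 in every replete library and in no depleted library.

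The SLC38 family moved in both directions. SLC38A1 (SNAT1) and SLC38A2 (SNAT2), sodium-coupled importers of glutamine, alanine and other small neutral amino acids, made up most of the family's counts, and both rose. SLC38A1 was at 618, 530.1 and 578 CPM in depleted and 342, 308 and 321 CPM in replete cells. The groups were far apart, with a log2 fold change of 1.06 (SE 0.07, adjusted p = 2.01e-08). SLC38A2 was at 430.4, 467 and 448 CPM in depleted and 373, 376 and 381 CPM in replete cells. The replete libraries were almost level and all depleted ones were above them, with a log2 fold change of 0.48 (SE 0.06, adjusted p = 1.39e-05). It was 0.21 (adjusted p = 0.0327) with GC content and length taken out and 0.25 with library totals alone. SLC38A2 divided by SLC38A1 within a library gave 0.697, 0.880 and 0.775 in depleted and 1.09, 1.22 and 1.19 in replete cells. SLC38A1 was therefore the larger in every depleted library and SLC38A2 in every replete library, and the log2 ratio differed by −0.58 (−0.36 ± 0.17 in depleted and 0.22 ± 0.08 in replete, mean ± SD, n = 3 each, exact two-sided permutation p = 0.1, the smallest possible).

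The steepest increase of the family was in SLC38A7 (SNAT7), which exports glutamine from lysosomes. It was at 51.2, 65.7 and 54.5 CPM in depleted and 15.2, 9.35 and 11.7 CPM in replete cells. The lowest depleted library held more than 3 times the CPM of the highest replete library, and the log2 fold change was 2.46 (SE 0.16, adjusted p = 2.84e-08). SLC38A9, the lysosomal carrier that reports arginine to the growth kinase complex mTORC1, went the other way at low counts, with 24, 18 and 17 counts in depleted and 31, 34 and 29 in replete libraries. In CPM this was 2.20, 2.06 and 1.96 against 3.43, 4.29 and 3.84, with no overlap. The log2 fold change was −0.66 (SE 0.24, adjusted p = 0.0254). This call was lost with DESeq2 (adjusted p = 0.124), and when replete replicate 2 (0.0790), replete replicate 3 (0.0516) or depleted replicate 3 (0.0640) was left out. It was also lost in the test against a 1.5-fold change (glmTreat, adjusted p = 0.280).

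SLC38A5 (SNAT5), a carrier of glutamine, asparagine and histidine, fell. It was at 12, 16.3 and 13.7 CPM in depleted and 27.8, 29.6 and 29.9 CPM in replete cells, with every depleted library far below every replete one. The log2 fold change was −0.83 (SE 0.13, adjusted p = 7.51e-05). SLC38A10, a less studied member, was at 23.7, 33.0 and 24.1 CPM in depleted and 39.4, 37.5 and 41.5 CPM in replete cells. Depleted replicate 2 lay nearest to the replete libraries, and the log2 fold change was −0.33 (SE 0.13, adjusted p = 0.0373). The call was lost without depleted replicate 1 (adjusted p = 0.142), depleted replicate 3 (0.152), replete replicate 1 (0.0611) or replete replicate 3 (0.114). It was also lost with DESeq2 (0.0701), with GC content and length taken out (0.321), and in the test against a 1.5-fold change. SLC38A6, also little studied, was at 42.6, 35.9 and 40.6 CPM in depleted and 56.5, 48.5 and 57.9 CPM in replete cells. Its CPM ranges did not overlap, yet its log2 fold change of −0.22 did not pass (SE 0.10, adjusted p = 0.0625). It passed as lower with library totals alone (−0.45, adjusted p = 0.00143) and in 6 other alternatives. Exons of SLC38A6 overlap those of TRMT5 on the other strand, which had a log2 fold change of 0.40 (adjusted p = 0.00114).

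The other SLC38 genes were near the limit of detection. SLC38A4 had 3 depleted and 9 replete counts, a ratio of 0.288 (95% counting interval 0.0502 to 1.16), SLC38A3 had 3 counts in all, SLC38A8 had 2 and SLC38A11 had none.

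In the SLC36 family, SLC36A1 (PAT1), which moves small amino acids with protons out of lysosomes, was at 111, 104.7 and 116 CPM in depleted and 24.9, 23.0 and 21.1 CPM in replete cells. The lowest depleted library held more than 4 times the highest replete library, and the log2 fold change was 2.49 (SE 0.09, adjusted p = 8.30e-11). Its paralogue SLC36A4 (PAT4), a carrier of proline and tryptophan, was at 15.9, 12.7 and 13.0 CPM in depleted and 20.5, 14.9 and 16.4 CPM in replete cells. These ranges overlapped, and the log2 fold change was −0.09 (SE 0.15, adjusted p = 0.622). With GC content and length taken out it was −0.47 (adjusted p = 0.00836). SLC36A2 and SLC36A3 had 5 and 1 counts in all.

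The SLC43 genes were all low. SLC43A1 (LAT3), a facilitative carrier of leucine and related amino acids, fell from 6.20, 6.19 and 4.37 CPM in replete to 1.47, 1.95 and 2.54 CPM in depleted replicates 1 to 3. The groups did not overlap, and the log2 fold change was −1.29 (SE 0.27, adjusted p = 0.000613). SLC43A2 (LAT4), its paralogue, was at 5.77, 7.90 and 8.19 CPM in depleted and 9.30, 7.70 and 9.14 CPM in replete cells. It had overlapping ranges and a log2 fold change of −0.04 (SE 0.18, adjusted p = 0.836). SLC43A3, a purine nucleobase carrier despite its family, had 2 depleted and 15 replete counts, a ratio of 0.115 (95% counting interval 0.0128 to 0.496).

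**Figure D3:**
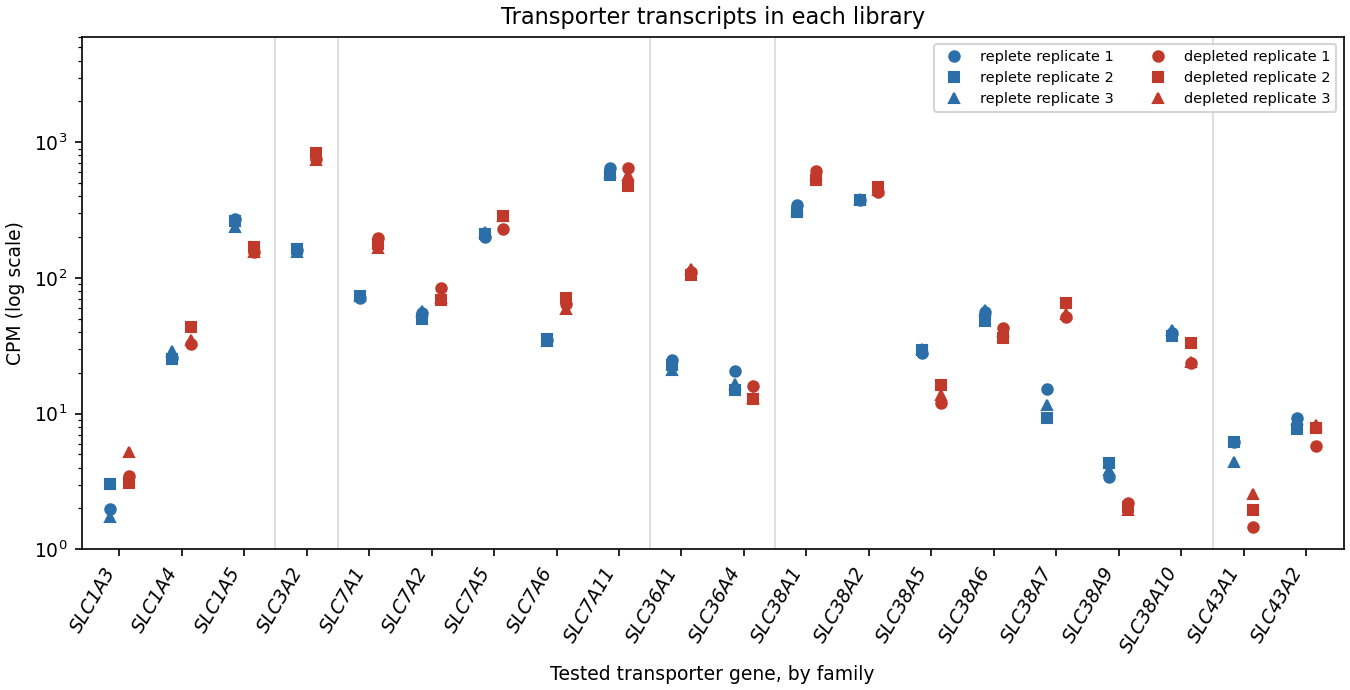
CPM (log scale) of the 20 tested carrier genes in each library, with replete libraries in blue and depleted libraries in red and a symbol for each replicate. The groups are separate for 17 genes and overlap for SLC7A11, SLC36A4 and SLC43A2, and SLC3A2 moves from below SLC7A5 to the highest level of all in depleted cells.

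Over all 40 genes the summed level was 3484, 3411 and 3398 CPM in depleted and 2386, 2264 and 2308 CPM in replete replicates 1 to 3. The mean difference was 1112 CPM, of which SLC3A2 gave 617 CPM (55.5%), SLC38A1 251 CPM (22.6%), SLC7A1 107 CPM (9.58%) and SLC36A1 87.5 CPM (7.87%). SLC1A5 had the largest difference the other way, −96.3 CPM. SLC7A11 differed by −36.6 CPM on library totals, while its log2 fold change on the trimmed-mean scale was 0.14 and did not pass. SLC3A2 thereby went from 6.88% to 22.6% of the summed level, and SLC7A11 from 26.0% to 16.5%. The SLC1 and SLC43 families were the ones with a lower sum in depleted cells, SLC1 at 201 ± 13.1 against 286 ± 17.5 CPM and SLC43 at 9.35 ± 1.91 against 14.9 ± 1.08 CPM (mean ± SD, n = 3 each). These sums use library totals.

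**Figure D4:**
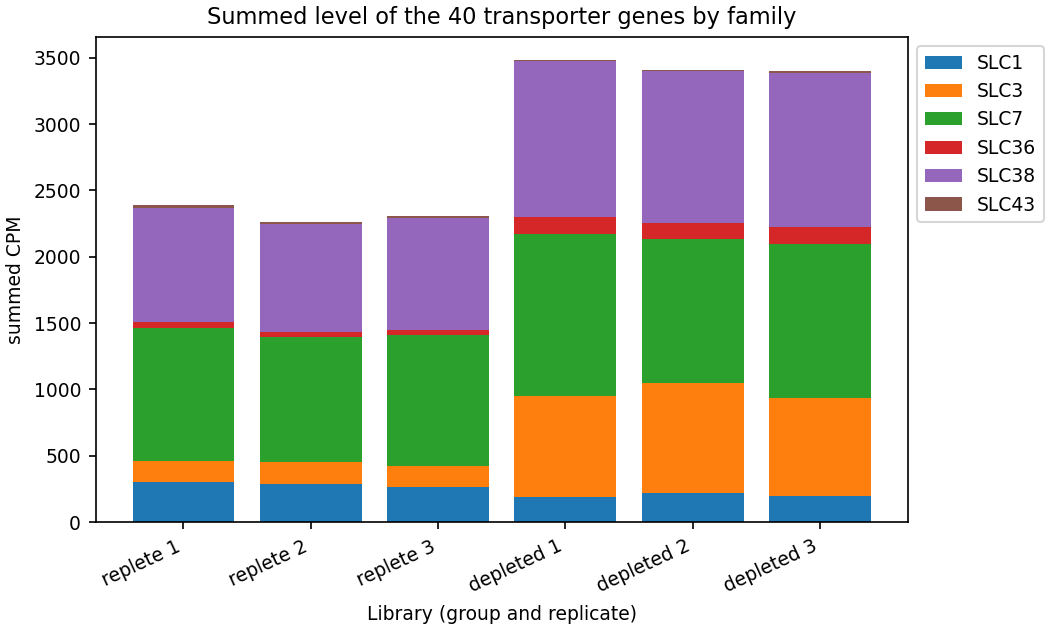
Summed CPM of the 40 carrier genes in each library, stacked by family, with replete libraries on the left and depleted libraries on the right. The sums are 2264 to 2386 CPM in replete and 3398 to 3484 CPM in depleted libraries, and the SLC3 segment grows most.

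Of 20 further amino acid carriers outside these families, 9 were tested, 4 were higher and 4 were lower, near the shares over all tested genes (39.1% higher and 39.4% lower). The higher ones included carriers of the lysosomal membrane: MFSD12, which brings cysteine into lysosomes, rose from 6.70 ± 0.881 to 30.8 ± 2.59 CPM (means ± SD, n = 3 each, log2 fold change 2.42, adjusted p = 5.01e-09), and the cystine exporter CTNS rose from 47.2 ± 2.35 to 95.3 ± 7.91 CPM (1.24, adjusted p = 4.81e-08). SLC6A6, the taurine carrier, fell from 127 ± 5.17 to 7.69 ± 0.931 CPM (log2 fold change −3.81, adjusted p = 7.13e-12). SLC15A4, a lysosomal carrier of histidine and peptides, fell from 38.3 ± 2.46 to 15.4 ± 0.755 CPM (−1.09, adjusted p = 1.08e-06).

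Among 7 tested genes whose proteins bind the carriers or turn them over, 4 were higher and 3 lower, where 39.1% and 39.4% of all tested genes were. NEDD4L, a ubiquitin ligase that removes carriers from the surface, rose by 2.17 on the log2 scale (adjusted p = 4.06e-10), and SGK1, a kinase that restrains it, rose by 1.62 (adjusted p = 1.58e-08). LAPTM4B, which brings the SLC7A5 and SLC3A2 pair to lysosomes, fell by 1.48 (adjusted p = 3.88e-09), and CD44, a surface protein that stabilises SLC7A11, fell by 1.10 (adjusted p = 4.61e-08). The Ragulator and Rag GTPase genes, whose products meet SLC38A9 on the lysosome, were higher for 8 of 9, against 39.1% of all tested genes. The count includes LAMTOR5, at a log2 fold change of 0.24 (adjusted p = 0.0240), whose CPM was 111 ± 7.88 in depleted and 110.0 ± 7.80 in replete cells (mean ± SD, n = 3 each). RRAGC rose by 3.85 (adjusted p = 6.01e-12) and RRAGD by 3.69 (adjusted p = 1.35e-09), while LAMTOR2 fell by 1.04 (adjusted p = 7.84e-07). In the branch from GCN2 to ATF4, 9 of 10 genes were higher, against 39.1% of all tested genes. ATF4 rose by 1.46 (adjusted p = 4.68e-10), DDIT3 by 3.60 (adjusted p = 1.84e-13) and ATF3 by 5.80 (adjusted p = 2.37e-11). The kinase gene EIF2AK4 fell by 1.49 (adjusted p = 2.18e-07). These lists were chosen with earlier results of these data known, so their counts beside the share of all genes are no test of the lists.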

How the data were processed

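Bowtie2, edgeR and the build hg19 are named in the submitters' processing notes with no role or version; the counting program, strand use and annotation are not given in the sources used here. Each deposited file holds the raw counts of a single library in 25737 entries, and the unit was checked on the values. Entries of the 286 repeated symbols were summed, giving 24462 symbols. Genes that passed filterByExpr (minimum count 10, minimum total 15) were scaled by TMM factors, which were 0.917 to 0.929 for depleted and 1.08 to 1.09 for replete libraries. Groups were compared two-sided by robust quasi-likelihood fitting (edgeR 4.0.16, R 4.3.3), with Benjamini-Hochberg adjustment over all 12739 tested genes and a threshold of 0.05. SE is the log2 fold change over the root of its F statistic. The members and lists were chosen with earlier results of these data known. Tested carriers are given in every library, and further lists by up to 2 genes per direction with the smallest p, with ATF4 and EIF2AK4 in any case. Alternatives were 3 other scalings (DESeq2 size factors, library totals, upper quartile), no filter or a minimum mean of 10 CPM, the replicate number as a block, each library left out, DESeq2 1.42.0, voom in limma 3.58.1, glmTreat against 1.5-fold, the largest entry per symbol, and offsets from a loess fit (span 0.5) of each library on GC content and length of the longest GENCODE 29 transcript. In simulated counts of 12518 genes for this comparison, the test found 86.9% of 99 genes with a planted log2 change of 1 and 99% of 100 with 2, and made 11 false calls among 196. Changes were planted there in only 99 and 100 genes, while 78.6% of all tested genes passed in this series. Recovery and false calls at that share were not tested. GENCODE 29 (GRCh38) served for exon overlaps and transcript features. Positions are given only for RefSeq promoter stretches on GRCh38.p14, since the counts are on another build.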

Additional observations from a re-analysis of the deposited data

How the results depend on the processing

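Of the 4 counts (carriers and all genes, higher and lower) most stayed within 1.5 times the reported value. The exceptions were glmTreat against 1.5-fold, which called 6 carriers higher, 2 lower and 3324 genes higher over all, and DESeq2, which called 3 carriers lower. Leaving out each library gave 11 to 12 carriers higher and 3 to 6 lower, with 3 lower without replete replicate 3, 4691 to 5257 genes higher and 4826 to 5368 lower over all, a log2 ratio difference of SLC3A2 to its light chains of 2.10 to 2.26, and of SLC38A2 to SLC38A1 of −0.66 to −0.50. SLC7A11 turned to −0.25 with GC content and length taken out. The cause of these changes was not tested, beyond the wider null of glmTreat. The replicate numbers showed no clear pairing of the libraries, with correlations of same-numbered deviations of 0.12, 0.01 and 0.04. Depleted replicates 1 and 3 correlated best with their own number, and depleted replicate 2 did not. With 3 libraries per group, this cannot tell whether same-numbered libraries shared a batch. The replicate block gave 11 carriers higher and 6 lower, with SLC38A6 added at an adjusted p of 0.0461. Its ratio differences were 2.20 and −0.58 (exact sign-flip p = 0.25, the smallest for 3 numbers). SLC7A5 alone in place of all light chains gave 1.94. SLC3A2, SLC7A1, SLC7A6, SLC36A1, SLC38A1 and SLC38A7 were called higher and SLC38A5 lower under all 17 alternatives, and SLC43A1 lower under the 16 that could test it. Without a filter, SLC3A1 and SLC7A7 were also called higher, and SLC7A8 and SLC43A3 lower. The 14 carriers under the filter were described by their counts.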
